A study of Mus musculus with 12 samples.

Results

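IM156 added to a CpG oligodeoxynucleotide (ODN) was compared with ODN alone in mouse splenic B cells, across every gene that passed a filter on low counts. The comparison set 3 libraries of ODN+IM156 against 3 of ODN, 6 of the 12 of the study, in 11857 of the 23282 rows of the count table. The spread of each gene was estimated from all 12 libraries in 1 fit. The ODN+IM156 mice received 50 µg of the ODN on days 1 and 3 and 30 mg/kg of IM156 on days 0 and 2, all injected into the peritoneum. The ODN mice had the ODN injections alone. The other groups were mice given IM156 alone, on the same days and at the same dose, and untreated controls, with 3 libraries each. All mice were labelled C57BL/6 wild type aged 7 weeks, and spleens were taken on day 4. The series description calls the mice lupus-prone, which the labels do not explain. The labels give no vehicle, no sex and no number of animals behind a library. The p-values below therefore measure the spread between samples within the 4 groups, which may be technical.

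CpG-ODN is a short synthetic DNA that mimics bacterial DNA and is sensed in endosomes by TLR9, a receptor that B cells carry and that drives them, through MyD88 and NF-κB, towards activation and division. IM156 is a biguanide that inhibits oxidative phosphorylation (OXPHOS), the process by which the respiratory chain of the mitochondrion passes electrons from NADH (complex I) and succinate (complex II) to oxygen and uses the proton gradient to make ATP. Resting B cells that are activated enlarge, build ribosomes and mitochondria and enter the cell cycle, so the genes for these machines are usual readouts of activation. Cells short of ATP are known to engage the kinase AMPK, and cells under mitochondrial stress the transcription factor ATF4.

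Levels are given in CPM, counts scaled to a common library size. The libraries were of even depth, with 9650775 to 11103365 counts in ODN+IM156 and 10372508 to 11532525 in ODN, and a tested gene had a median of 256 counts per library over these 6. B-cell markers other than Pax5 were abundant, which matched the label. Pax5, a transcription factor of B cells, was low, at 6.29 to 11.2 CPM in ODN+IM156 libraries and 2.92 to 11 CPM in ODN libraries. Ebf1, another such factor, was at 577 to 627 CPM in ODN+IM156 libraries and 470 to 588 CPM in ODN libraries. Ms4a1, the gene of CD20, was at 1139 to 1199 CPM in ODN+IM156 libraries and 1238 to 1500 CPM in ODN libraries. Cd79a and Cd79b, the signalling chains of the B-cell receptor, were at 620.2 to 690.2 CPM and 1287 to 1445 CPM in ODN+IM156 libraries, and at 619.5 to 647.3 CPM and 1539 to 1663 CPM in ODN libraries. Ms4a1 and Cd79b did not overlap between the groups and were not called (adjusted p = 0.208 and 0.19, edgeR quasi-likelihood test). The ODN libraries differed among themselves more than the ODN+IM156 libraries did. The chi-square per degree of freedom between replicates, which is 1 for counting error alone, was 6.74 to 12.2 in ODN+IM156 and 22.3 to 67.8 in ODN. ODN replicate 1 was the highest of the 3 for cell-cycle genes, given below. The ribosomal RNA row Rn45s took 1.46% of the counts of ODN replicate 2, against 5.18% to 8.22% in ODN+IM156 and 7.98% and 8.42% in ODN replicates 1 and 3. That row was counted in the chi-square values above. They were 65.1 and 67.8 for the pairs with ODN replicate 2, and 22.3 for ODN replicates 1 and 3. The part of Rn45s in these values was not tested. Xist, a long RNA that coats the inactive X chromosome, had 1 count in ODN replicate 3, against 9701 to 13011 counts in the other 11 libraries. The Y genes Ddx3y, Eif2s3y, Kdm5d and Uty together had 0 counts in ODN replicate 3 and 0 to 2 in the others. Kdm6a, a gene of the X chromosome, was at 51.9 CPM there, against 68.1 to 105 CPM elsewhere. What set this library apart was not tested. Immunoglobulin constant regions and genes of the mitochondrial DNA were not analysed here.

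Of the 11857 genes tested, 8 (0.0675%) differed between ODN+IM156 and ODN at an adjusted p below 0.05 (edgeR quasi-likelihood test, Benjamini-Hochberg over all genes tested). Of these, 6 (0.0506% of genes) rose and 2 (0.0169%) fell. An unadjusted p below 0.05 was reached by 1919 genes (16.2%), 800 of them higher (6.75%) and 1119 lower (9.44%) in ODN+IM156. The shares higher and lower are the background for the counts of list members given below. The median log2 fold change over all genes tested was -0.01. The levels of the 3 libraries of one group did not overlap those of the other for 2267 genes (19.1%), 1076 of them higher (9.07%) and 1191 lower (10%) in ODN+IM156. With libraries scaled by their totals alone, 10 genes rose (0.0843%) and 1 fell (0.00843%), and 1144 were higher (9.65%) and 717 lower (6.05%) at an unadjusted p below 0.05. At an adjusted p below 0.1 stood 410 genes, 154 higher and 256 lower. In the plot of fold change against p, cell-cycle and ribosomal protein genes lie on the lower side, and interferon-gamma inducible and immediate-early genes mostly on the higher side.

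**Figure D1:**
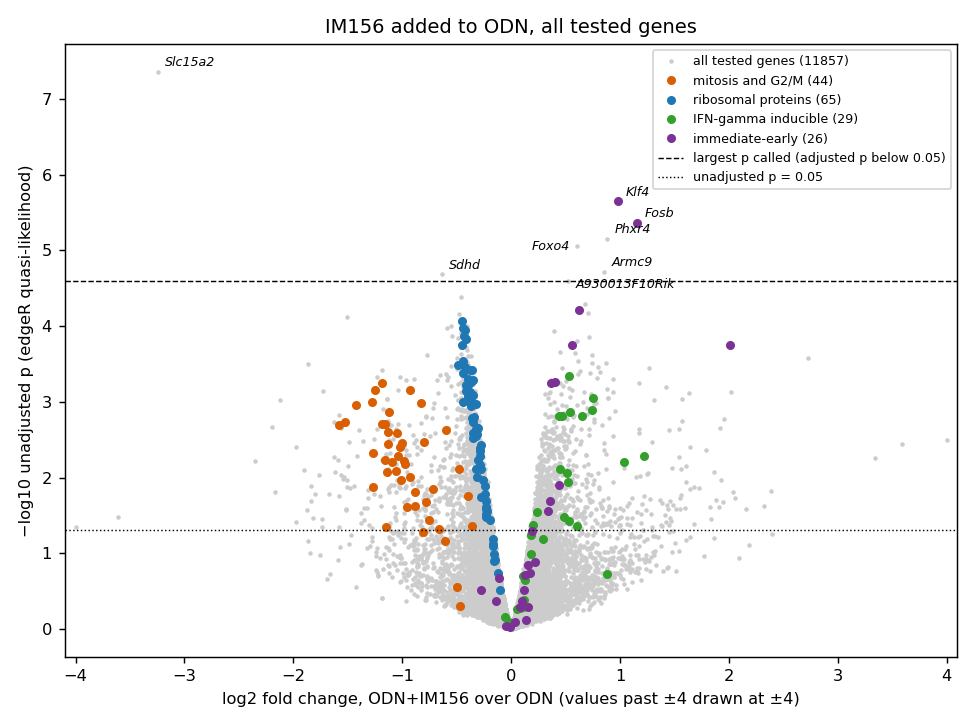
Each point is 1 of the 11857 genes tested, with its log2 fold change of ODN+IM156 over ODN on the x axis and the −log10 of its unadjusted p (edgeR quasi-likelihood test) on the y axis; 4 gene lists are coloured. The 8 named genes lie above the dashed line; all 44 mitosis genes and all 65 ribosomal protein genes lie left of 0, and 27 of 29 interferon-gamma inducible genes lie right of it.

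The number of genes called depended on the libraries and on the test. Leaving out ODN replicate 3, the library without Xist, raised it to 794 of 12083 genes (6.57%), 267 higher (2.21%) and 527 lower (4.36%). Leaving out any other library gave 1 to 6 genes. DESeq2 called 373 genes (3.15%), and limma with voom sample weights called 281 (2.37%). A set of 239 genes, 78 higher and 161 lower, was called by DESeq2, by the weighted limma fit and without ODN replicate 3. All 8 genes were among those called by DESeq2, by the weighted limma fit and without ODN replicate 3. At an unadjusted p below 0.05, the share of all genes that were higher was 4.42%, 6.32% and 5.16% without ODN+IM156 replicates 1, 2 and 3, and 5.86%, 5.80% and 9.56% without ODN replicates 1, 2 and 3. The share that were lower was 6.12%, 8.62% and 7.46% without ODN+IM156 replicates 1, 2 and 3, and 6.57%, 8.08% and 11% without ODN replicates 1, 2 and 3. These shares are the background for the counts of list members given below for fits without a library. Of the 8, only Slc15a2 remained called without ODN+IM156 replicate 1, without ODN+IM156 replicate 3 or without ODN replicate 2.

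**Figure D2:**
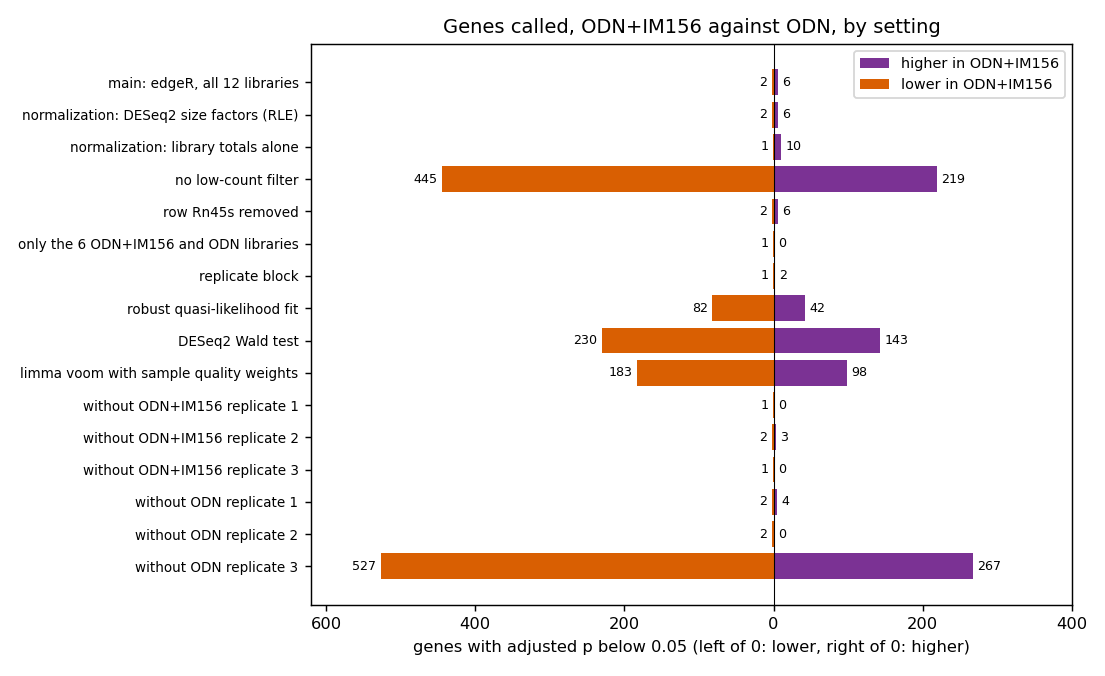
Bars give the number of genes past an adjusted p of 0.05 under each setting, with genes higher in ODN+IM156 to the right of 0 and lower to the left. The count ran from 1 gene, with only the 6 libraries or without ODN+IM156 replicate 1 or 3, to 794 genes without ODN replicate 3.

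Slc15a2 had the smallest p and the largest fold change of the 8. It encodes PEPT2, a proton-coupled transporter that carries di- and tripeptides, bacterial ones among them, into cells; the gene lies on the minus strand at chr16:36750177-36784962 (GRCm38). Its level was 3.11, 0.951 and 4.52 CPM in the ODN+IM156 libraries, against 30.8, 19.8 and 33.01 CPM in the ODN libraries. The highest ODN+IM156 library was far below the lowest ODN library. Slc15a2 fell by 3.24 on the log2 scale (SE 0.372, adjusted p = 0.000519, edgeR quasi-likelihood test), and its fold change lay between -3.74 and -2.86 when 1 library was left out. It was the only one of the 8 called in each of the 6 fits that left out a library. Without ODN, the level was 7.78, 11.3 and 13.99 CPM in the IM156 libraries, against 16.7, 35.02 and 18.2 CPM in the controls, and the ranges did not overlap there either. That difference did not pass (log2 fold change -1.08, adjusted p = 0.999), and the difference between the effects of IM156 with and without ODN had an adjusted p of 0.154.

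Sdhd was the other gene that fell. It encodes the small membrane anchor of succinate dehydrogenase, complex II of the respiratory chain, and lies at chr9:50596357-50603812 on the minus strand. It stood at 50.3, 58.9 and 48.1 CPM in ODN+IM156 libraries and 75.9, 93.8 and 74.3 CPM in ODN libraries. The groups did not overlap, and the log2 fold change was -0.64 (SE 0.114, adjusted p = 0.0349, edgeR quasi-likelihood test). In mice without ODN it stood at 53.4, 54.8 and 62.2 CPM with IM156 and 55.5, 52.8 and 49.1 CPM in controls, so the ODN+IM156 range overlapped both unstimulated ranges, while every ODN library was above them.

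Klf4 and Fosb led the genes that rose. Klf4 is a zinc-finger transcription factor known to restrain the division of B cells, at chr4:55527143-55532466 on the minus strand. Its level was 151, 104 and 141 CPM in ODN+IM156 libraries, against 81.1, 62.8 and 56.7 CPM in ODN libraries. Every ODN+IM156 library was above every ODN library, and the log2 fold change was 0.98 (SE 0.148, adjusted p = 0.0133, edgeR quasi-likelihood test). Fosb, a subunit of the AP-1 transcription factor that is made within minutes of many stimuli, lies at chr7:19302696-19310051 on the minus strand. It stood at 217, 128 and 169.5 CPM in ODN+IM156 libraries and 96.6, 69.99 and 64.9 CPM in ODN libraries, again without overlap. The log2 fold change of Fosb was 1.16 (SE 0.182, adjusted p = 0.017). Without ODN, Klf4 was at 156, 144 and 138 CPM with IM156 and 133, 129 and 175 CPM in controls. Fosb was at 229, 217 and 158 CPM with IM156 and 166, 122 and 166 CPM in controls. For both genes the ODN group was thus the low one of the 4, and the ODN+IM156 range overlapped those of both unstimulated groups.

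Foxo4, on the X chromosome at 101254528 to 101260873, encodes a forkhead factor that growth signals through AKT keep out of the nucleus. It was at 86.9, 84.4 and 94.6 CPM in ODN+IM156 libraries and 53.7, 58.99 and 62.2 CPM in ODN libraries. The groups did not overlap, and the log2 fold change was 0.60 (SE 0.101, adjusted p = 0.0209, edgeR quasi-likelihood test). Armc9, at chr1:86154780-86278284, encodes an armadillo-repeat protein of the base of the cilium. It had 31.1, 26.1 and 26.3 CPM in ODN+IM156 libraries and 12.1, 16.6 and 17.4 CPM in ODN libraries, with no overlap and a log2 fold change of 0.86 (SE 0.152, adjusted p = 0.0349). The gene overlaps a predicted coding gene, Gm21972, on its own strand, and the counting rule for such overlaps is not given in the sources used here.

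The other 2 genes that rose are not known to encode proteins with a described role. Phxr4 overlaps Maml2, on the same strand, at chr9:13431361-13432751. It was at 51.9, 64.8 and 56.2 CPM in ODN+IM156 libraries and 28.1, 29.5 and 35.97 CPM in ODN libraries (log2 fold change 0.88, SE 0.145, adjusted p = 0.0208, edgeR quasi-likelihood test). Reads of Phxr4 and of Maml2 cannot be told apart here. A930013F10Rik, a long non-coding RNA in RefSeq at chr8:22634371-22636809, was at 57.9, 59.2 and 59.02 CPM in ODN+IM156 libraries and 40.8, 39.3 and 42.4 CPM in ODN libraries. Its libraries were the tightest of the 8 genes, and its log2 fold change was 0.52 (SE 0.0950, adjusted p = 0.0373). Neither gene overlapped between the groups. Foxo4, Armc9, Phxr4 and A930013F10Rik were each called in 1 of the 6 fits that left out a library, the one without ODN replicate 3. Klf4, Fosb and Sdhd were each called in 3 of the 6.

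**Figure D3:**
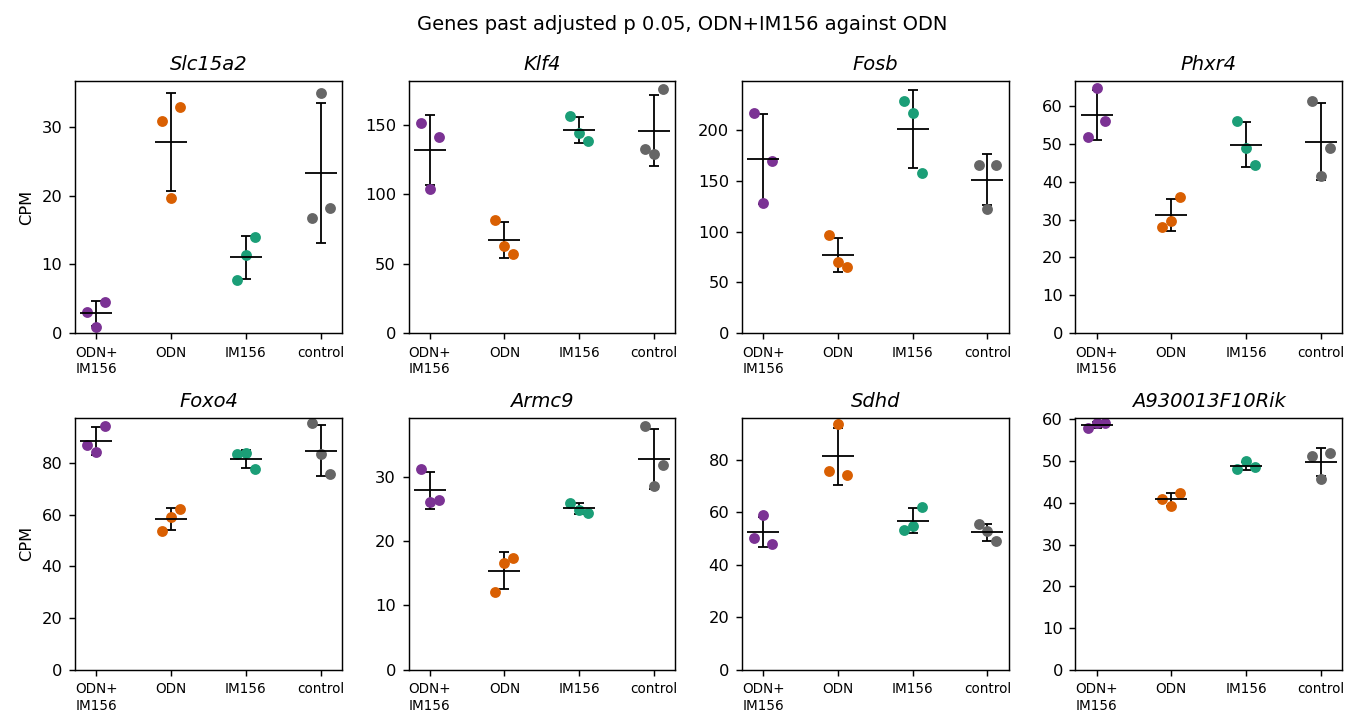
Each panel gives 1 of the 8 genes past an adjusted p of 0.05, with CPM on the y axis, 1 point per library, and the mean (long line) ± SD (n = 3) for each of the 4 groups. In each panel the 3 ODN+IM156 points and the 3 ODN points do not overlap; Slc15a2 was at 0.951 to 4.52 CPM in ODN+IM156 libraries and 19.8 to 33.01 CPM in ODN libraries.

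Klf4 and Fosb belong to the immediate-early genes, transcription factors and RNA regulators that a cell switches on within minutes of a stimulus without making new protein. Of 26 immediate-early genes tested, 2 rose and none fell at an adjusted p below 0.05, and 10 were higher and none lower at an unadjusted p below 0.05. The same number, 10, did not overlap between the groups, all higher in ODN+IM156, and the median log2 fold change of the list was 0.17. Egr1, a zinc-finger factor induced by MAP kinase signalling, was at 66.7, 49.4 and 65.6 CPM in ODN+IM156 libraries and 42.8, 35.7 and 39.8 CPM in ODN libraries. It did not overlap but was not called (log2 fold change 0.62, adjusted p = 0.0619, edgeR quasi-likelihood test). Fos, the founding member of the AP-1 family, was at 205, 158 and 172 CPM in ODN+IM156 libraries and 142, 113 and 108 CPM in ODN libraries (adjusted p = 0.0622). Nr4a2, an orphan nuclear receptor, was low in all libraries, at 3.49, 3.17 and 3.37 CPM in ODN+IM156 and 0.937, 0.773 and 0.765 CPM in ODN (adjusted p = 0.0622). Fos and Nr4a2 were chosen after their values were seen. Jun, Junb, Zfp36, Klf6 and Dusp1 were the other members higher at an unadjusted p below 0.05, with log2 fold changes of 0.34 to 0.44 and adjusted p from 0.0622 (Junb and Zfp36) to 0.238 (Dusp1), and 16 of the 26 did not reach it. Klf2, a factor of resting lymphocytes, was at 686, 621 and 597 CPM in ODN+IM156 libraries and 602, 584 and 620.2 CPM in ODN libraries. Cd69, an early activation antigen, was at 52.3, 50.7 and 58.1 CPM in ODN+IM156 libraries and 47.3, 48.3 and 52.5 CPM in ODN libraries, and both genes overlapped. The count of 10 ran from 8 to 12 when 1 library was left out, and without ODN replicate 3 the number called was 7.

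The promoters of Klf4 and Fosb are shown because these genes rose most among the called ones. Both sequences are from RefSeq (GRCm38.p6), read 5′ to 3′ on the minus strand up to the base before the start of transcription, at chr4:55532476-55532725 for Klf4 and chr7:19310046-19310195 for Fosb. Capitals mark the core of the cyclic AMP response element, TGACG or its reverse complement, which CREB and related factors can bind.
Klf4: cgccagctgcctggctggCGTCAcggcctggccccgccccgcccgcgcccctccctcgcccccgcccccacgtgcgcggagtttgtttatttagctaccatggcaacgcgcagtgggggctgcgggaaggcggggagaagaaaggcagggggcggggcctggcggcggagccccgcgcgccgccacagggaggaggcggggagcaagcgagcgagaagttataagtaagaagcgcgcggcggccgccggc
Fosb: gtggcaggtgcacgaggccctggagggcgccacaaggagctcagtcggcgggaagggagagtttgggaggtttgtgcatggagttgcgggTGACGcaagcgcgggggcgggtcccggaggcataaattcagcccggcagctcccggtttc
A search of both strands from 250 bases before to 50 bases after the start found TGACG in 13 of the 21 immediate-early genes with a sequence (61.9%), and in 2956 of 8998 tested genes with one (32.9%). A match describes letters and not binding, and the list was chosen by function.

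Genes of the respiratory chain, the machine that IM156 acts on, were lower in ODN+IM156 as a group of small differences. Of 36 nuclear-encoded complex I subunits, none was called; 18 were lower and none higher at an unadjusted p below 0.05, 14 were lower without overlap, and the median log2 fold change was -0.23. Ndufb5, an accessory subunit of the membrane arm, was at 142, 138 and 148 CPM in ODN+IM156 libraries and 214, 208 and 165 CPM in ODN libraries (log2 fold change -0.46, adjusted p = 0.0622, edgeR quasi-likelihood test). Ndufb5 overlaps Mrpl47 on the opposite strand, and the strand rule of the counting is not given in the sources used here. Ndufv2, a core subunit of the NADH-oxidising arm that holds an iron-sulfur cluster, was at 96.3, 102 and 95.5 CPM in ODN+IM156 libraries and 144, 118 and 121 CPM in ODN libraries (adjusted p = 0.0622). Both were without overlap, and the ODN+IM156 libraries lay close together. The count of 18 fell to 7 without ODN replicate 2, to 10 without ODN+IM156 replicate 1 and to 9 with libraries scaled by their totals.

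Complexes II to V gave a like picture. Of 40 subunits, 1 (Sdhd, above) fell, 22 were lower and none higher at an unadjusted p below 0.05, 19 were lower without overlap, and the median log2 fold change was -0.26. Uqcrb, which binds ubiquinone in complex III, came nearest to a call, with 80.5, 79.3 and 82.9 CPM in ODN+IM156 libraries and 113, 117 and 105 CPM in ODN libraries (log2 fold change -0.46, adjusted p = 0.0547, edgeR quasi-likelihood test). Uqcrh, the hinge subunit of complex III, was at 461, 533 and 491 CPM in ODN+IM156 libraries and 669, 742 and 608 CPM in ODN libraries (adjusted p = 0.0622). Neither gene overlapped between the groups. On the opposite strand, Uqcrb overlaps the coding gene Gm10767. Without ODN replicate 3, 21 of the 40 were called lower, and 9 of the 36 of complex I. The medians of both lists were negative in every fit, from -0.28 to -0.17 for complex I and from -0.35 to -0.19 for complexes II to V. In mice without ODN the medians of IM156 over control were 0.09 for both lists.

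Enzymes that feed the chain or make ATP without it were tested beside it. Of 17 genes listed for the tricarboxylic acid cycle, 4 (Fh1, Mdh1, Sucla2 and Pdha1) were lower and none higher at an unadjusted p below 0.05. The median log2 fold change was -0.14, and 2 were lower without ODN replicate 2. Mdh1, the cytosolic malate dehydrogenase, and the pyruvate dehydrogenase subunits Pdha1 and Pdhb are in the list but stand outside the cycle itself. Fh1, which hydrates fumarate to malate, was at 90.95, 93.3 and 104 CPM in ODN+IM156 libraries and 133, 137 and 106 CPM in ODN libraries, without overlap (adjusted p = 0.0841, edgeR quasi-likelihood test). Fh1 overlaps Kmo, and Mdh1 overlaps Wdpcp, each on the opposite strand. Of 19 glycolytic genes, 4 were lower and none higher, and the median was -0.03. The count of 4 was 1 without ODN+IM156 replicate 1, without ODN+IM156 replicate 2 or with libraries scaled by their totals, and 2 without ODN replicate 2. The median was 0.02 with libraries scaled by their totals and 0.04 without ODN replicate 2. Ldha, which turns pyruvate into lactate, was at 128, 119 and 143 CPM in ODN+IM156 libraries and 148, 172 and 139 CPM in ODN libraries, with overlap (adjusted p = 0.203).

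Genes of the responses to low energy and mitochondrial stress were tested next. A list of 12 genes held AMPK subunits, the kinase complexes above AMPK and its regulators Fnip1, Flcn and Ppm1a. Of these, Fnip1, a partner of folliculin that binds AMPK, was lower and none was higher at an unadjusted p below 0.05 (log2 fold change -0.20, adjusted p = 0.289, edgeR quasi-likelihood test). No AMPK subunit or upstream kinase reached it. Fnip1 was named because it had the smallest p of the list. Prkaa1, a catalytic subunit of AMPK, was at 26.3, 32.6 and 32.9 CPM in ODN+IM156 libraries and 33.2, 35.5 and 33.7 CPM in ODN libraries (adjusted p = 0.591, edgeR quasi-likelihood test). In this list 2 of the 12 genes, Prkaa1 and Fnip1, were lower without overlap and none was higher without overlap. Over all genes tested, 10% were lower without overlap. Of 26 genes of the ATF4 stress response and of serine and one-carbon metabolism, 2 were higher and 3 lower, with a median of -0.05. The 2 higher genes became 0 without ODN+IM156 replicate 1, 1 without ODN+IM156 replicate 2, ODN replicate 1 or ODN replicate 2, and 4 with libraries scaled by their totals. Atf4 itself was at 421, 398 and 480.2 CPM in ODN+IM156 libraries and 344, 409 and 426 CPM in ODN libraries (log2 fold change 0.14, SE 0.104, adjusted p = 0.549). Ddit3, the gene of CHOP and a usual marker of this response, was at 57.6, 58.8 and 59.6 CPM in ODN+IM156 libraries and 60.3, 54.1 and 66.4 CPM in ODN libraries (log2 fold change -0.04, SE 0.108, adjusted p = 0.912). Asns, the asparagine synthetase that ATF4 induces, was near the limit of detection, at 1.51, 0.317 and 0.532 CPM in ODN+IM156 and 1.25, 1.20 and 1.82 CPM in ODN libraries. Atf4, Ddit3 and Asns overlapped between the groups. Ddit3 overlaps Mars on the opposite strand.

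Cytosolic ribosomal protein genes were lower throughout, by a small amount. All 65 tested had a negative fold change, between -0.49 and -0.1 on the log2 scale with a median of -0.32; none was called, 57 were lower at an unadjusted p below 0.05, and 54 were lower without overlap. Rpl36a, a protein of the large subunit encoded on the X chromosome, was at 427, 485 and 468 CPM in ODN+IM156 libraries and 700.1, 655 and 565 CPM in ODN libraries (log2 fold change -0.48, adjusted p = 0.0619, edgeR quasi-likelihood test). Rps12, of the small subunit, was at 539, 600.2 and 576 CPM in ODN+IM156 libraries and 834, 827 and 686 CPM in ODN libraries (adjusted p = 0.0619). Rpl30 was at 405, 406 and 414 CPM in ODN+IM156 libraries and 549, 614 and 496 CPM in ODN libraries (adjusted p = 0.0619). For all 3 the groups did not overlap, with ODN replicate 3 the lowest of its group. The count of 57 ran from 47 to 58 when 1 library was left out, and 40 of the 65 were called without ODN replicate 3. Ribosomal protein genes have many processed pseudogenes, and how reads shared with them were counted is not given in the sources used here.

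The start of Rps6, a protein of the small ribosomal subunit, is shown as an example of the pyrimidine run with which ribosomal protein mRNAs begin. The 30 bases are from RefSeq (GRCm38.p6, chr4:86857353-86857382, minus strand), and capitals mark the run.
Rps6: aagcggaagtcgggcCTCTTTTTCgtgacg
A cytosine followed by at least 4 further pyrimidines within 3 bases of the annotated start was found in 19 of 49 ribosomal protein genes with a sequence (38.8%), and in 1136 of 8998 tested genes (12.6%). Rps6 itself was at 715, 782 and 788 CPM in ODN+IM156 libraries and 934, 1046 and 857 CPM in ODN libraries, without overlap (log2 fold change -0.31, adjusted p = 0.0915, edgeR quasi-likelihood test).

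Other parts of the ribosome machinery were described in the same way. Of 50 mitochondrial ribosomal proteins, 14 were lower and 1 higher at an unadjusted p below 0.05, with a median log2 fold change of -0.15. The count of 14 was 9 without ODN+IM156 replicate 2 or ODN replicate 2, and 8 with libraries scaled by their totals. Of 32 nucleolar and ribosome assembly factors, 4 were lower and 5 higher, with a median of 0.12. Polr1b, the second largest subunit of RNA polymerase I, was at 12.6, 10.2 and 15.3 CPM in ODN+IM156 libraries and 4.48, 6.96 and 8.42 CPM in ODN libraries (log2 fold change 0.94, adjusted p = 0.0622, edgeR quasi-likelihood test). Npm1, an abundant nucleolar chaperone, was at 616, 675 and 706 CPM in ODN+IM156 libraries and 974, 859.9 and 757 CPM in ODN libraries (log2 fold change -0.38, adjusted p = 0.0634). Both were without overlap, Polr1b higher and Npm1 lower in ODN+IM156. The 5 higher genes became 2 without ODN+IM156 replicate 3, 3 without ODN replicate 1 and 11 without ODN replicate 3, and the 4 lower genes became 2 without ODN+IM156 replicate 1 or ODN replicate 2.

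Transcript length moved with these groups. When the 11375 genes with an annotated transcript were ranked by median transcript length and cut into 5 bins of equal size, the median log2 fold change was -0.06, -0.03, -0.01, 0.02 and 0.05 from the shortest to the longest bin. The corresponding medians of IM156 over control were 0.02, 0.01, 0, -0.01 and -0.02. Ribosomal protein and respiratory chain genes are short, and 2184 other genes of the shortest bin had a median of -0.05, with 274 lower and 106 higher at an unadjusted p below 0.05. Malat1, a long non-coding RNA that stays in the nucleus, was at 11065, 9441 and 12225 CPM in ODN+IM156 libraries and 7157, 5164 and 7592 CPM in ODN libraries (log2 fold change 0.72, adjusted p = 0.0622, edgeR quasi-likelihood test). Neat1, another nuclear RNA, was at 613, 549 and 600.4 CPM in ODN+IM156 libraries and 397, 476 and 430.4 CPM in ODN libraries (adjusted p = 0.0778). Neither overlapped, and both were chosen after their values were seen. The part of length and of nuclear RNA in the results for short genes was not tested.

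Genes of cell division differed by more than most lists, with wide spread among the ODN libraries. The median of mitosis genes was the farthest from 0 of the 43 lists, except without ODN replicate 1 (-0.36, against -0.61 for erythroid genes) and without ODN+IM156 replicate 1 (-0.84, against -0.93 for genes of natural killer (NK) and cytotoxic cells). All 44 genes of mitosis and G2/M phase had a negative log2 fold change, with a median of -1.0; none was called, 40 were lower at an unadjusted p below 0.05, and 3 were lower without overlap. The median log2 ratio of the list to the ODN mean was -1.08, -0.56 and -0.69 in ODN+IM156 libraries 1, 2 and 3, and 0.98, -0.11 and -0.87 in ODN libraries 1, 2 and 3. ODN replicate 3 was thus within the range of the ODN+IM156 libraries, and ODN replicate 1 stood far above the rest. In unstimulated mice it was -1.82, -1.87 and -2.12 with IM156 and -1.48, -2.0 and -1.25 in controls. Without ODN replicate 1, 11 of the 44 were lower at an unadjusted p below 0.05 and the median was -0.36; without ODN replicate 3, 39 were called lower and the median was -1.33. The robust fit gave 23 lower at an unadjusted p below 0.05 (8.98% of all genes).

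Cdk1, the kinase that starts mitosis, was at 26.1, 42.6 and 30.8 CPM in ODN+IM156 libraries and 119, 71.9 and 36.4 CPM in ODN libraries. The ranges overlapped, through ODN replicate 3 (log2 fold change -1.19, SE 0.288, adjusted p = 0.0622, edgeR quasi-likelihood test). Top2a, the topoisomerase that untangles chromosomes, was at 159, 264 and 232 CPM in ODN+IM156 libraries and 859, 374 and 226 CPM in ODN libraries (log2 fold change -1.16, adjusted p = 0.0836). Mki67, the gene of the proliferation antigen Ki-67, was at 59.2, 108 and 109.8 CPM in ODN+IM156 libraries and 350.5, 144 and 94.5 CPM in ODN libraries (log2 fold change -1.09, adjusted p = 0.13). For all 3 genes ODN replicate 1 was the highest library, and ODN replicate 3 lay within the range of the ODN+IM156 libraries. Of 46 S-phase and DNA replication genes, 24 were lower and none higher at an unadjusted p below 0.05, with a median of -0.42. That count fell to 4 without ODN replicate 1 and to 11 without ODN+IM156 replicate 1, and rose to 35 without ODN replicate 3. Pcna, the sliding clamp of DNA polymerases, was at 71.8, 84.03 and 86.2 CPM in ODN+IM156 libraries and 176, 125 and 85.2 CPM in ODN libraries, with overlap (log2 fold change -0.67, adjusted p = 0.0634). The long non-coding RNA 1190002F15Rik (Lockd), which lies next to the cyclin-dependent kinase inhibitor Cdkn1b, was at 14.5, 18.6 and 14.1 CPM in ODN+IM156 libraries and 78.4, 33.8 and 22.3 CPM in ODN libraries, without overlap (log2 fold change -1.51, adjusted p = 0.0619). In whole B-cell RNA, fewer dividing cells and less of these RNAs per cell cannot be told apart.

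The promoter of Cdk1 is shown because the mitosis genes moved together and share promoter letters. It is from RefSeq (GRCm38.p6, chr10:69352913-69353062, minus strand), and capitals mark the cell-cycle gene homology region core TTTGAA and the CCAAT box or its reverse complement ATTGG, to which the DREAM complex and the factor NF-Y are known to bind in G2/M genes.
Cdk1: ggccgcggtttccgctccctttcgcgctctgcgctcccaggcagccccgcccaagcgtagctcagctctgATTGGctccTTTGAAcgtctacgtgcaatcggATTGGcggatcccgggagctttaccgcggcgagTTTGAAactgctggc
TTTGAA or its reverse complement was found between 250 bases before and 50 bases after the start in 29 of 38 mitosis genes with a sequence (76.3%), and in 1083 of 8998 tested genes (12%). CCAAT was found on either strand in 28 of the 38 (73.7%), and in 3558 of the 8998 (39.5%). These shares describe the list, which was chosen by function.

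Genes inducible by interferon-gamma were higher. This list holds immunity-related GTPases, guanylate-binding proteins and the proteasome and transporter subunits that prepare peptides for MHC class I. Of 29 tested, none was called; 17 were higher and none lower at an unadjusted p below 0.05, 9 were higher without overlap, 27 had a positive fold change, and the median log2 fold change was 0.45. Nlrc5, the transactivator of MHC class I genes, was at 105, 82.6 and 97.8 CPM in ODN+IM156 libraries and 51.7, 66.1 and 79.03 CPM in ODN libraries, without overlap (log2 fold change 0.53, SE 0.127, adjusted p = 0.0622, edgeR quasi-likelihood test). Tgtp2, a GTPase that acts against intracellular parasites, was at 71.04, 44.8 and 60 CPM in ODN+IM156 libraries and 25.9, 29.8 and 49.1 CPM in ODN libraries. Tgtp2 overlapped through ODN+IM156 replicate 2 and ODN replicate 3 (log2 fold change 0.75, adjusted p = 0.0648). It has a near-identical neighbour, Tgtp1, and reads of the pair may have been split between them. Tgtp2 also overlaps the coding gene Olfr56 on the opposite strand. Gbp2, a guanylate-binding protein chosen after its values were seen, was at 79.6, 66.4 and 71.2 CPM in ODN+IM156 libraries and 61.4, 44.9 and 54.2 CPM in ODN libraries, without overlap (adjusted p = 0.0778). Iigp1, a GTPase that coats the vacuoles of intracellular parasites, was at 37.4, 20.7 and 29.7 CPM in ODN+IM156 libraries and 9.999, 12.02 and 20.9 CPM in ODN libraries (log2 fold change 1.04, SE 0.337, adjusted p = 0.13). In unstimulated mice Iigp1 was at 1.70, 0.748 and 1.02 CPM with IM156 and 2.48, 2.09 and 0.194 CPM in controls, so both ODN groups were above these.

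By library, the list's median log2 ratio to the ODN mean was 0.47, 0.21 and 0.37 in ODN+IM156 and -0.18, -0.14 and 0.27 in ODN. ODN replicate 3 again lay within the range of the ODN+IM156 libraries. The count of 17 fell to 10 without ODN+IM156 replicate 1, and without ODN replicate 3 it was 22, of which 13 were called. Of 51 genes of the type I interferon response, 7 were higher and 3 lower at an unadjusted p below 0.05, with a median of 0.11. The count of 7 fell to 1 without ODN replicate 2, to 3 without ODN+IM156 replicate 1 and to 4 without ODN+IM156 replicate 3, and the 3 lower genes became 1 without ODN replicate 1. Isg15, a ubiquitin-like protein induced by type I interferon, was at 32.8, 28.96 and 36.2 CPM in ODN+IM156 libraries and 33.2, 40.02 and 34.1 CPM in ODN libraries (adjusted p = 0.755, edgeR quasi-likelihood test). Irf7, the factor that drives type I interferon genes, was at 32.2, 23.99 and 30.8 CPM in ODN+IM156 libraries and 25.5, 24.6 and 22.1 CPM in ODN libraries (adjusted p = 0.43). Both overlapped. Irf7 overlaps Phrf1 on the opposite strand.

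Promoters of an interferon-inducible pair are shown for the letters that their known activators read. They are from RefSeq (GRCm38.p6), Tgtp2 at chr11:49064213-49064362 on the minus strand and Gbp2 at chr3:142620513-142620662 on the plus strand, and each ends at the base before the start. Capitals mark TTTC, any 2 bases and TTTC again, or the reverse complement, the interferon-stimulated response element that IRF factors bind.
Tgtp2: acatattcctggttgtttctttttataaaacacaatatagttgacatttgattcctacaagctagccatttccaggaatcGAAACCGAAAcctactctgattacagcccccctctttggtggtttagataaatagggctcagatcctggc
Gbp2: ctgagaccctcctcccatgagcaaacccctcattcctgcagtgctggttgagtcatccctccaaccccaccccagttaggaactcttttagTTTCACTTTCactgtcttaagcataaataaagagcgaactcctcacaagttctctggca
The response element was found in 12 of 21 genes of the list with a sequence (57.1%) and in 298 of 8998 tested genes (3.31%). Both shares describe letters and a list that was chosen as inducible by interferon-gamma, and not an effect of IM156.

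**Figure D4:**
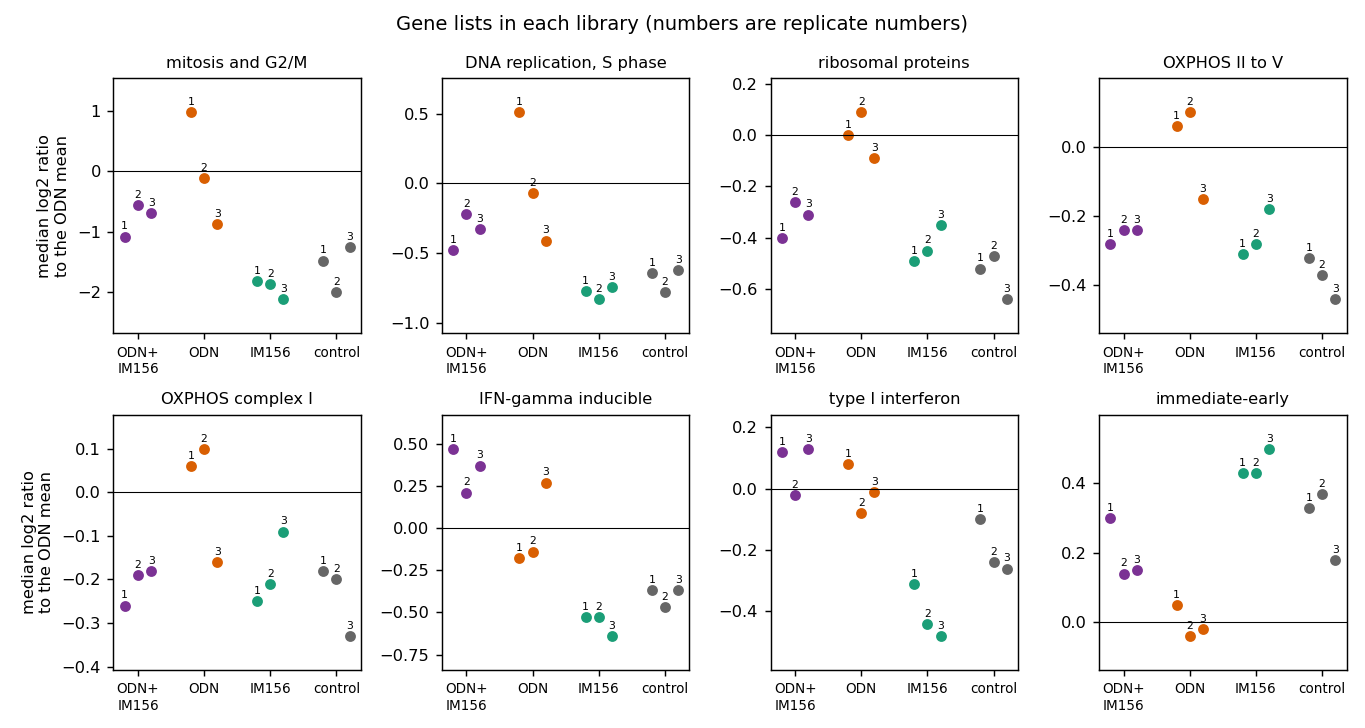
Each panel gives 1 gene list, with the median over its tested members of the log2 ratio of a library's level to the ODN mean on the y axis, and 1 numbered point per library in the 4 groups. For mitosis genes ODN libraries ran from 0.98 to -0.87 while ODN+IM156 libraries ran from -0.56 to -1.08; for ribosomal proteins the groups did not overlap.

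Genes by which TLR9 and NF-κB activate B cells showed no common direction. Of 38 NF-κB and TLR target genes, 3 were higher and 4 lower at an unadjusted p below 0.05, with a median log2 fold change of 0.02. Over all genes tested, 6.75% were higher and 9.44% lower at that p, so these counts stood near the background. The 3 higher genes became 6 without ODN replicate 3 and 5 with libraries scaled by their totals. Cd83, a surface protein of activated B cells, was at 254, 288 and 253 CPM in ODN+IM156 libraries and 375, 409 and 284 CPM in ODN libraries (log2 fold change -0.42, adjusted p = 0.0734, edgeR quasi-likelihood test). The ranges overlapped between the highest ODN+IM156 library and ODN replicate 3. Cd86, a costimulatory ligand for T cells, was at 28.2, 24.8 and 26.9 CPM in ODN+IM156 libraries and 27.7, 26.6 and 26.7 CPM in ODN libraries (log2 fold change -0.02, SE 0.121). Myc, a driver of growth, was at 63.1, 68.3 and 58.6 CPM in ODN+IM156 libraries and 51.1, 55.04 and 71.7 CPM in ODN libraries (log2 fold change 0.09, SE 0.140). Cd86 and Myc overlapped. Plac8, a small cysteine-rich protein of myeloid and lymphoid cells, was abundant, at 895, 1134 and 890 CPM in ODN+IM156 libraries and 1776, 1416 and 1190 CPM in ODN libraries, without overlap (adjusted p = 0.0619). Il5ra, the receptor of interleukin 5 on B cells, was at 25.7, 21.98 and 24.9 CPM in ODN+IM156 libraries and 15.2, 13.1 and 16.1 CPM in ODN libraries, without overlap (log2 fold change 0.71, adjusted p = 0.0619).

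The BCL2 family holds proteins that block cell death and proteins that promote it. Of 15 tested, 6 were lower and 1 higher at an unadjusted p below 0.05, with a median log2 fold change of -0.25. The 6 held the prosurvival Bcl2a1a, Bcl2a1b, Bcl2a1d and Bcl2l2 and the proapoptotic Bad and Bmf. Bcl2a1d, a prosurvival member that NF-κB induces, was at 51.4, 62.2 and 56.3 CPM in ODN+IM156 libraries and 92.4, 82.9 and 71.8 CPM in ODN libraries (log2 fold change -0.54, adjusted p = 0.0622, edgeR quasi-likelihood test). Its copies Bcl2a1a and Bcl2a1b are near-identical, so the split of reads among the 3 is uncertain. Bmf, a proapoptotic member, was at 7.17, 13.7 and 10.6 CPM in ODN+IM156 libraries and 29.8, 17.9 and 16.3 CPM in ODN libraries (adjusted p = 0.0622). Bcl2 itself, the founding prosurvival member, was at 318, 332 and 338 CPM in ODN+IM156 libraries and 281, 255 and 287 CPM in ODN libraries (log2 fold change 0.26, adjusted p = 0.178). None of the 3 overlapped, and Bcl2 was the one that was higher. The count of 6 fell to 3 without ODN replicate 2.

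Klf4 and Foxo4 were also the called members of the 20 genes of FOXO targets and quiescence. In that list 4 were higher and 4 lower at an unadjusted p below 0.05, and the median was 0.03, and 2 were lower without ODN+IM156 replicate 3. Il7r, the interleukin 7 receptor and a FOXO1 target, was low, at 3.02, 3.91 and 5.05 CPM in ODN+IM156 libraries and 1.25, 2.15 and 1.44 CPM in ODN libraries, without overlap (adjusted p = 0.0996, edgeR quasi-likelihood test). Cdkn2d, a cyclin-dependent kinase inhibitor, was at 60.95, 62.8 and 63.01 CPM in ODN+IM156 libraries and 96.97, 84.2 and 67.3 CPM in ODN libraries (log2 fold change -0.41, adjusted p = 0.0778). It was lower in ODN+IM156, also without overlap. Prdm1 and Xbp1, the factors of plasma cell differentiation, were not called (adjusted p = 0.803 and 0.473). Prdm1 was at 6.70, 4.33 and 7.09 CPM in ODN+IM156 libraries and 4.90, 3.09 and 7.56 CPM in ODN libraries, with overlap. Xbp1 was at 72.7, 73.1 and 60 CPM in ODN+IM156 libraries and 79.5, 79.9 and 74.3 CPM in ODN libraries, lower without overlap.

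Markers of other cell types were low beside Ms4a1 and Cd79b, and none was called. Neutrophil markers (S100a8, S100a9, Camp and Ngp) summed to 17.5, 17.1 and 22.9 CPM in ODN+IM156 libraries and 84.6, 21.98 and 25.4 CPM in ODN libraries, with Camp and Ngp at 0 in some libraries of both groups. The high library was ODN replicate 1, the one high for mitosis genes; S100a9 was at 7.92, 8.88 and 11.4 CPM in the ODN+IM156 libraries and 48.2, 11.9 and 12.9 CPM in the ODN libraries. Dendritic cell markers (Flt3, Zbtb46, Xcr1 and Siglech) summed to 48.1, 27.6 and 37.04 CPM in ODN+IM156 libraries and 23.9, 28.4 and 29.3 CPM in ODN libraries. Flt3 and Zbtb46 overlapped between the groups, with log2 fold changes of 0 and -0.01, and Siglech was at 0 to 0.0886 CPM in ODN+IM156 libraries and 0.172 to 0.574 CPM in ODN libraries. Xcr1, of the cross-presenting dendritic cells, was at 29.8, 8.88 and 18.4 CPM in ODN+IM156 libraries and 5.42, 8.42 and 11.5 CPM in ODN libraries (adjusted p = 0.0863, edgeR quasi-likelihood test). It was highest in ODN+IM156 replicate 1, the library also highest for interferon-gamma inducible genes. Clec12a, a lectin receptor of myeloid and dendritic cells, was lower without overlap, at 10.47, 10.99 and 11.17 CPM in ODN+IM156 libraries and 17.1, 17.7 and 13.01 CPM in ODN libraries (log2 fold change -0.55, adjusted p = 0.0988). In the longer list of 20 dendritic cell genes, 5 were higher and 1 lower at an unadjusted p below 0.05, with a median of 0.18. Over all genes tested, 6.75% were higher and 9.44% lower. The count of 5 ran from 2 to 6 when 1 library was left out. Monocyte and macrophage markers summed to 57.5, 34.3 and 53.4 CPM in ODN+IM156 libraries and 46.2, 45.7 and 23.4 CPM in ODN libraries. Of the 23 genes in the longer list of these cells, none reached that p. There 19 had a positive fold change and 4 a negative one, with a median of 0.32. T-cell markers summed to 30.6 to 36.8 CPM in ODN+IM156 libraries and 26.1 to 32.5 CPM in ODN libraries. NK cell markers (Gzma, Ncr1, Klrb1c and Nkg7) summed to 7.83, 5.50 and 3.81 CPM in ODN+IM156 libraries and 5.73, 14.1 and 12.3 CPM in ODN libraries. Gzma, a granule protease of NK and cytotoxic T cells, was lower without overlap, at 2.92, 2.96 and 1.68 CPM in ODN+IM156 libraries and 3.85, 9.02 and 8.61 CPM in ODN libraries (log2 fold change -1.51, adjusted p = 0.162). Platelet markers summed to 82.1 to 111.2 CPM in ODN+IM156 libraries and 82.9 to 140.9 CPM in ODN libraries. Erythroid markers summed to 37.5 to 79.6 CPM in ODN+IM156 libraries and 58.85 to 143.5 CPM in ODN libraries, and plasma cell markers summed to 84.03 to 123.9 CPM in ODN+IM156 libraries and 57.5 to 199.2 CPM in ODN libraries. The part of these cells in the differences of cell-cycle and interferon-inducible genes was not tested.

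IM156 without ODN gave no call. Against control, 0 of 11857 genes (0%) passed an adjusted p of 0.05 and 439 (3.70%) an unadjusted p of 0.05, 213 higher (1.80%) and 226 lower (1.91%) with IM156 (edgeR quasi-likelihood test); DESeq2 called 2 genes and the weighted limma fit 1. The difference between the effect of IM156 with ODN and its effect without ODN passed for 0 genes (0%), with 1453 genes (12.3%) at an unadjusted p below 0.05. The smallest adjusted p of that difference was 0.131, for Armc9, and the 8 genes called with ODN had values from 0.131 to 0.245. DESeq2 called the difference for 165 genes and the weighted limma fit for 130. By the quasi-likelihood test, a difference between the effects with and without ODN was thus not shown for any of the 8. The groups without ODN gave a median log2 fold change of IM156 over control of 0.13 for ribosomal proteins, -0.45 for mitosis genes, -0.11 for interferon-gamma inducible genes and 0.16 for immediate-early genes. At an unadjusted p below 0.05, 4 of 65 ribosomal protein genes were higher, 2 of 44 mitosis genes and 2 of 29 interferon-gamma inducible genes were lower, and 5 of 26 immediate-early genes were higher and 1 lower with IM156 than in controls. Of the 51 genes of the type I interferon response, 11 were lower and none higher at that p. In that list 46 had a negative fold change of IM156 over control, and the median was -0.22.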

How the data were processed

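RNA of splenic B cells was measured with the Lexogen QuantSeq 3′ kit, which reads the 3′ ends of transcripts, per the labels' protocols. The authors deposited raw read counts per gene (unit: counts) in 23282 rows named by symbol. Per the submitters' processing notes, the tools were Bowtie2, bedtools and edgeR and the genome GRCm38 (mm10); versions, annotation and strand rule are not given in the sources used here. The 12 other per-sample columns were not used. Of the rows, 5883 had no count, and the 79 rows that share 35 symbols were left separate.

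Genes kept by filterByExpr were scaled with TMM factors and fitted to all 12 libraries, with 1 mean for each of 4 groups and 8 residual degrees of freedom (edgeR 4.0.16, R 4.3.3). The two-sided quasi-likelihood tests compared ODN+IM156 with ODN, IM156 with control, and both effects with each other. The p-values were adjusted by Benjamini-Hochberg over all genes tested, and a gene was called below 0.05. Unadjusted p values describe lists only. DESeq2 1.42.0, limma 3.58.1 (voom with sample quality weights), other scalings and filters, and fits without each library were run beside it. The steps were tested on simulated data. Promoters and transcript lengths came from RefSeq (GRCm38.p6) and GENCODE of the same genome. Figures were drawn with matplotlib 3.10.9 in Python 3.11.15.

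The comparison, its gene lists (43 lists, 1093 genes, 1080 in the table) and the tests were chosen with earlier results of these data known. Named genes were the 10 largest rises and 10 largest falls among called genes that averaged 10 CPM or more without overlap between groups, filled up from the smallest p where fewer were called. The called members of each list up to 4, or else its 2 of smallest p, and a fixed set of stress, interferon, B-cell and cell-cycle genes were added. Reads carry no molecular identifiers.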

Additional observations from a re-analysis of the deposited data

How the results depend on the processing

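Counts of calls depended on the fit; the cause was not tested unless the setting itself shows it (fewer libraries, fewer or more genes tested). For ODN+IM156 against ODN, 8 genes were called (6 higher, 2 lower; 4 members of the lists). Size factors of DESeq2 and removal of Rn45s gave the same 8 genes. Scaling by library totals gave 11 (10 higher, 1 lower), no filter on low counts 664 (219 higher, 445 lower, 204 list members), the 6 libraries alone 1 (0 higher, 1 lower, 0 list members), and the robust fit 124 (42 higher, 82 lower, 48 list members). DESeq2 gave 373 (143 higher, 230 lower, 109 list members; 2759 adjusted p values were NA) and the weighted limma fit 281 (98 higher, 183 lower, 94 list members). An adjusted p below 0.1, added after the data were seen, gave 410. Leaving out 1 library gave 1 to 794 genes, 0 to 267 of them higher and 1 to 527 lower, and 0 to 215 list members; the high values are those without ODN replicate 3. IM156 without ODN gave 0 genes, against 53 with no filter, 2 with DESeq2 and 1 with the weighted limma fit. The difference of the effects gave 0, against 276 with no filter, 165 with DESeq2, 130 with the weighted limma fit and 0 to 260 when 1 library of ODN+IM156 or ODN was left out. Of the named genes' 1714 values under alternatives, 1412 kept their direction and side of the threshold, 43 lost and 251 gained a call, and 8 changed sign, all of them values of uncalled genes. Ddit3 (-0.04 on the log2 scale) was at 0.02 with libraries scaled by their totals, at 0 in the weighted limma fit and at -0.11 to 0.05 when 1 library was left out. Cd86 (-0.02) was at 0.03 with library totals and at -0.06 to 0.03 when 1 library was left out. Without 1 library, Prdm1 (0.23) was at -0.04 to 0.62 and the endothelial marker Cdh5 (0.50) at -0.06 to 0.91.

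The labels number the replicates of each group 1 to 3, and no pairing by number was seen over all tested genes. Deviations from the group means correlated at -0.114 to 0.0903 between same-numbered libraries (18 pairs) and at -0.141 to 0.144 between others (36 pairs). A correlation over all genes cannot show a pairing that touches only a part of them. ODN+IM156 replicate 1, for one, correlated at -0.114 with ODN replicate 1 and at 0.139 with ODN replicate 3. With the replicate number as a block, 3 genes were called (2 higher, 1 lower; 2 list members). Whether depth or the spread between libraries limits the calls was not tested.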

Other observations

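Genes for the quality control and clearance of proteins were lower or near 0, and their counts depended on single libraries. Of 31 proteasome subunits, none was called, 8 were lower and none higher at an unadjusted p below 0.05, 10 were lower without overlap, and the median log2 fold change was -0.13. The count of 8 fell to 5 without ODN replicate 1 or ODN replicate 2 and to 4 with libraries scaled by their totals. Psma1, a subunit of the 20S core, was at 101, 82.4 and 93.4 CPM in ODN+IM156 libraries and 127, 137 and 109 CPM in ODN libraries (log2 fold change -0.43, adjusted p = 0.0631, edgeR quasi-likelihood test). Of 35 genes of the lysosome and its proton pump, 8 were lower and none higher, with a median of -0.04. That count fell to 5 without ODN+IM156 replicate 1 or ODN+IM156 replicate 3, and to 5 with libraries scaled by their totals, where the median was 0.01. Lamp2, a glycoprotein of the lysosomal membrane, was at 92.7, 107 and 88.6 CPM in ODN+IM156 libraries and 151, 127 and 119 CPM in ODN libraries, without overlap (log2 fold change -0.46, adjusted p = 0.0622). Of 37 genes of translocation and folding in the endoplasmic reticulum, 9 were lower and none higher, with a median of -0.08, and 5 were lower with libraries scaled by their totals. The share of all tested genes lower at that p was 9.44%.

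Of 19 genes of the CD11c and T-bet expressing B cells that build up with age and in lupus models, 6 were lower and none higher at an unadjusted p below 0.05, with a median log2 fold change of -0.20; the count of 6 was 0 without ODN replicate 1. Cxcr3, a chemokine receptor of these and other cells, was at 3.30, 6.03 and 3.81 CPM in ODN+IM156 libraries and 25.9, 6.10 and 6.03 CPM in ODN libraries, so that ODN replicate 1 alone stood high (adjusted p = 0.157, edgeR quasi-likelihood test). Among 13 genes that respond to glucocorticoids, 4 were higher and 1 lower, with a median of 0.27. The count of 4 was 2 without ODN+IM156 replicate 3, without ODN replicate 1 or with only the 6 libraries. Per1, a clock gene that glucocorticoids induce, was at 23.5, 19.1 and 25.97 CPM in ODN+IM156 libraries and 16.04, 16.2 and 17.3 CPM in ODN libraries, without overlap (log2 fold change 0.47, adjusted p = 0.119). Cd274, the gene of the inhibitory ligand PD-L1, was at 87.9, 76.2 and 77.4 CPM in ODN+IM156 libraries and 60.6, 47.7 and 63.9 CPM in ODN libraries, also without overlap (log2 fold change 0.49, adjusted p = 0.104).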
